A study of Mus musculus with 8 samples.

Results

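The Hox genes of all 4 clusters were followed in whole mouse kidneys at embryonic day 14.5, in wild-type kidneys and in kidneys with a conditional knockout of Mdm4. The members were taken as the non-control probes whose RefSeq accession belongs to a gene named Hoxa, Hoxb, Hoxc or Hoxd with a number. This gave 39 Hox genes on 46 probes, among 22911 named genes and 56605 probes on the array: 11 in the Hoxa cluster, 10 in Hoxb, 9 in Hoxc and 9 in Hoxd. Of these, 34 were well above background in enough channels to be tested, among 16013 genes tested in all.

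Hox genes encode homeodomain transcription factors and lie in 4 clusters, in which a gene's place along the chromosome matches where along the body axis it is switched on. Genes of the same number in different clusters are paralogs, and the proteins bind DNA together with the Pbx and Meis homeodomain cofactors. In the developing kidney the paralogs of group 11 act in the metanephric mesenchyme, where they work with Eya1 and Pax2 upstream of Six2 and Gdnf, those of group 10 are known from the stroma, and Hoxb7 is expressed in the nephric duct and the ureteric bud that grows from it. The promoter of Hoxb7 is widely used to drive transgenes in that epithelium.

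The mutant group carried a Hoxb7Cre transgene and a conditional Mdm4 allele; Mdm4 encodes an inhibitor of p53, and the other group is labelled wild type. Cre from this transgene acts in the ureteric bud lineage, so that the other cells of the whole kidney keep the gene. RNA of 4 wild-type and 4 mutant samples was hybridised as 4 pairs on 2-colour arrays, with 2 dye-swapped arrays a pair whose values were averaged, so that n = 4 pairs. The labels do not say whether the wild-type embryos carried Cre, whether an RNA is 1 embryo or a pool, or what a pair shares beyond its arrays, and p-values measure only how far these 4 pairs spread, which may be technical. Unless stated otherwise, a value is the log2 of the mutant over the wild-type signal, with its standard error (SE), and p-values come from limma's moderated test with Benjamini-Hochberg adjustment over all 16013 genes. In whole-organ RNA, fewer cells of a type and less RNA per cell cannot be told apart.

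The arrays held 62976 spots each, 60.7% to 70.2% of spots were well above background in a channel, 0 were saturated, and the number of arrays limits the precision, with a median SE of 0.07 over all genes tested. The targeted gene, Mdm4, was at -0.03, -0.06, -0.28 and -0.35 in pairs 1 to 4 (mean -0.18 ± 0.07, limma adjusted p = 0.471); no source used here says whether its probe lies in the deleted stretch. All 28 listed markers of the ureteric epithelium, all 14 of nephron progenitors and all 19 of the renal stroma were measured above background. Genes of the Y chromosome differed within pairs, with means over 4 such genes of 2.76, 1.31, -1.64 and 2.83 in pairs 1 to 4: pair 3 ran opposite to the others. All 8 labelled RNAs correlated best with themselves across their 2 arrays, over 30798 probes, although for mutant 3 the correlation with itself (0.547) barely exceeded that with another RNA (0.544). For a few probes the wild-type channel stood apart on 2 arrays. These were that of pair 1 with the mutant in Cy3 and that of pair 2 with the mutant in Cy5. Hoxb8 and Hoxd4 were among the probes, and their means are given with and without these arrays.

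Described by cluster, the Hoxb genes lay on 1 side. All 8 Hoxb genes tested had a mean ratio below 0 (5 of 8 with median centring in place of loess), with a median of -0.19, against 19 of all 34 Hox genes (9 with median centring, where the median of all genes was 0.14) and 46.1% of all genes tested. In the Hoxa cluster 3 of 10 genes were below 0 (median 0.08, but -0.03 on the Cy5 arrays alone), in Hoxc 2 of 7 (median 0.09) and in Hoxd 6 of 9 (median -0.08, but 0.06 with median centring). The median was -0.03 over the 34 Hox genes and 0.01 over all genes. The members of a cluster share arrays, cells and a stretch of chromosome, so that these counts are a description and not a test. No single Hox gene passed limma's test: 0 of 34 were called at an adjusted p under 0.05, as were 0% of all genes, and 0 Hox genes were called under any of 16 other settings.

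At an unadjusted p under 0.05, 4 Hox genes were lower in the mutant (Hoxd4, Hoxb9, Hoxb7 and Hoxb6), where 3.6% of all genes were, and 1 was higher (Hoxc9), where 7.01% of all genes were. These 5 became 2 without pair 1 (Hoxd4 and Hoxd12), 8 without pair 2, 10 without pair 3 and 4 without pair 4. With median centring they became 11, of which Hoxb6 and Hoxb7 were not part. Lower values in all 4 pairs were found for 5 Hox genes, namely Hoxb6, Hoxb7, Hoxb9, Hoxd4 and Hoxd9, against a background of 7.84%. Higher values in all 4 pairs were found for 3, Hoxa10, Hoxc9 and Hoxd13, against 12.1%. Of the 5 lower in all pairs, 3 lie in the Hoxb cluster and 2 in Hoxd.

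**Figure D1:**
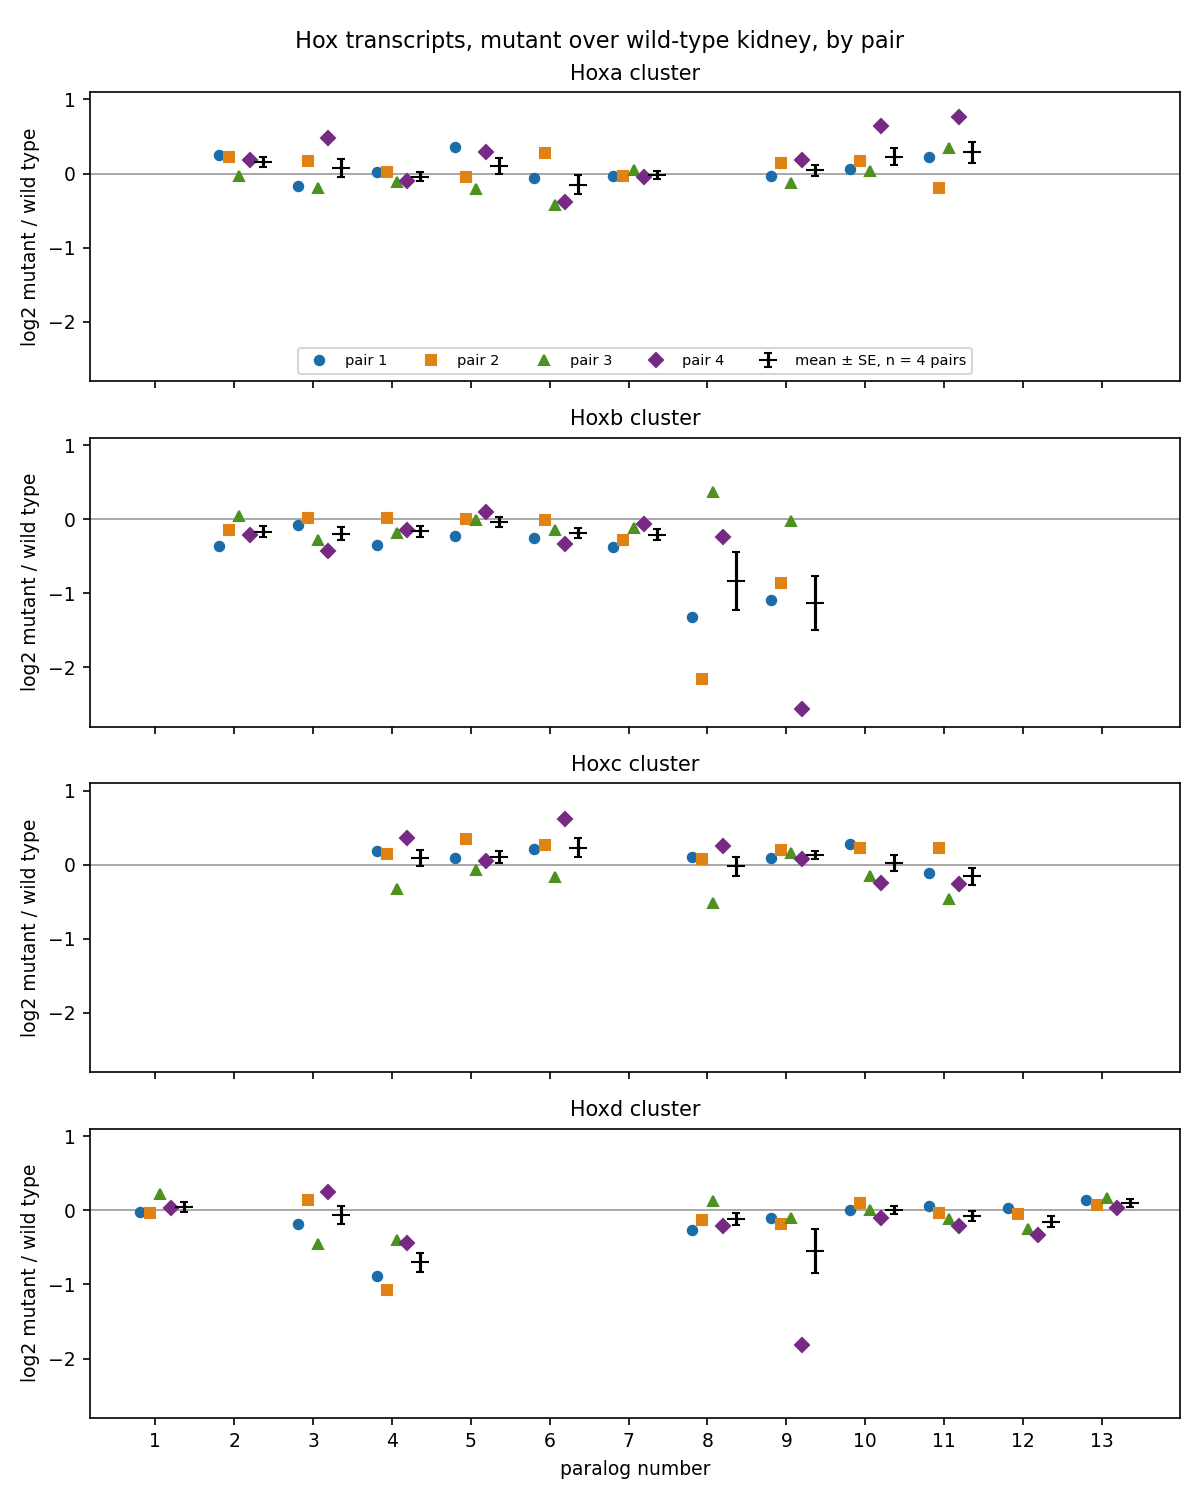
Log2 ratio of mutant over wild type (vertical axis) for tested Hox genes by paralog number (horizontal axis), 1 panel per cluster; points are the 4 pairs and the bars mark the mean ± SE. The Hoxb means all lie below 0 (5 of 8 do with median centring in place of loess), and the widest spreads belong to Hoxb8, Hoxb9 and Hoxd9.

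The Hoxb and Hoxd medians were below 0 in every pair. The Hoxb median was -0.35, -0.08, -0.07 and -0.23 in pairs 1 to 4, and 8, 5, 6 and 7 of its 8 genes were below 0 in those pairs. The Hoxc median, by contrast, was 0.10, 0.23, -0.16 and 0.08, with 1, 0, 6 and 2 of 7 genes below 0. The Hoxa median had the same signs, at 0.04, 0.15, -0.10 and 0.24, and that of Hoxd was -0.02, -0.04, -0.10 and -0.21. Pair 3, in which the Y-linked ratio was reversed, was thus the pair with the Hoxa and Hoxc medians on the other side of 0. The part of sex in this was not tested beyond a fit with the Y-linked ratio as a covariate. Only pair 3 had a Y-linked ratio below 0, so that fit cannot tell sex from other features of this pair. In the fit, all 8 Hoxb genes were below 0, and the Hoxa and Hoxc medians were -0.0039 and -0.02. With each array centred on its median in place of loess, the median of all genes moved from 0.01 to 0.14, and 5 of 8 Hoxb genes lay below 0 while 8 of 8 lay below the median of all genes.

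Hoxb7, whose promoter drives the Cre, was lower in the mean ratio by a small amount. With mutant RNA in Cy5 it was at -0.51, -0.42, -0.29 and -0.17 in pairs 1 to 4, and with mutant RNA in Cy3 at -0.25, -0.14, 0.06 and 0.03. The pair values were -0.38, -0.28, -0.11 and -0.07, all below 0, with a mean of -0.21 ± 0.07 (1.16-fold lower, unadjusted p = 0.024, adjusted p = 0.434). With median centring in place of loess the mean of Hoxb7 was -0.04 (adjusted p = 0.807). Its probe gave 13.94 to 14.20 normalised log2 intensity in the wild-type channels and 13.63 to 14.18 in the mutant channels, so the levels of the groups overlapped. The ratio also differed between dye orientations, at -0.35 in Cy5 and -0.07 in Cy3 (adjusted p = 0.015 for the difference). No source used here says whether the transgene carries transcribed Hoxb7 sequence that the probe would read.

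Markers of the ureteric epithelium, the tissue in which Hoxb7 is expressed and the transgene acts, lay lower in the same samples. Of the 28 measured, 27 had a mean below 0, where 46.1% of all genes had. Their median was -0.37, with pair medians of -0.63, -0.34, 0.07 and -0.52, and all 28 were above background. The 3 with the smallest p were Sox8 at -0.40 ± 0.09, Gfra1, a GDNF co-receptor, at -0.52 ± 0.12 and Krt23 at -0.70 ± 0.17 (limma adjusted p = 0.361, 0.391 and 0.397). In pairs 1, 2 and 4 the markers' median was further below 0 than Hoxb7, and in pair 3 it was above 0 while Hoxb7 was at -0.11. The part of the epithelium's share of the tissue in the Hoxb values was not tested.

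Hoxb6, the neighbour of Hoxb7, also had all pairs below 0. Its values were -0.35, -0.03, -0.25 and -0.50 with mutant RNA in Cy5 and -0.17, 0.00030, -0.05 and -0.16 in Cy3. The pair values of -0.26, -0.01, -0.15 and -0.33 gave a mean of -0.19 ± 0.07 (1.14-fold lower, unadjusted p = 0.035, adjusted p = 0.451), with pair 2 at almost no difference. The mean of Hoxb6 was -0.02 with median centring (adjusted p = 0.923) and -0.10 on the Cy3 arrays alone. Wild-type and mutant levels overlapped, with highest channels of 13.58 and 13.24. The more anterior Hoxb genes had means of a similar size, Hoxb2 at -0.17, Hoxb3 at -0.20 and Hoxb4 at -0.17, each below 0 in 3 of 4 pairs. Hoxb5 was near 0, at -0.04, and below 0 in 2 of 4 pairs.

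Hoxb8 and Hoxd4 had larger mean ratios, but their largest differences lay on 2 arrays on which the wild-type channel stood above all other channels. This pattern was chosen for description after its values were seen. Hoxb8, a gene of the posterior trunk in the embryo, was at -0.28, -3.59, 0.61 and -0.32 with mutant RNA in Cy5 and at -2.36, -0.71, 0.13 and -0.17 in Cy3. The wild-type RNA of pair 1 gave 11.74 on one array and 13.23 on the other, and that of pair 2 gave 13.36 and 10.03, whereas those of pairs 3 and 4 stayed between 9.19 and 9.30. The mutant channels ran from 8.94 to 11.46, overlapping the wild-type ones, and both of pair 1 (11.46 and 10.87) were above those of the other pairs. The same labelled RNA thus gave 2 different levels of Hoxb8, and the second Hoxb8 probe did the same (9.33 and 11.04 in wild type 1, 10.66 and 7.39 in wild type 2) but was well above background in only 4 of 8 wild-type and 7 of 8 mutant channels. The Hoxb8 pair values of -1.32, -2.15, 0.37 and -0.24 differed in sign and averaged -0.84 ± 0.39 (1.79-fold lower, adjusted p = 0.512). Without those 2 arrays the mean was -0.22 (adjusted p = 0.756), without pair 2 it was -0.40, and without pair 3 -1.24.

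Hoxd4, a paralog group 4 gene that patterns the hindbrain and anterior spine, had the smallest p of the Hox genes. It was at -0.23, -1.95, -0.26 and -0.29 with mutant RNA in Cy5 and at -1.55, -0.21, -0.55 and -0.57 in Cy3, below 0 on all 8 arrays. Its pair values were -0.89, -1.08, -0.41 and -0.43 (mean -0.70 ± 0.13, 1.63-fold lower, unadjusted p = 0.0013, adjusted p = 0.304). The 2 largest differences lay on the same 2 arrays as those of Hoxb8: the wild-type channel was at 12.70 and 12.81 there and between 10.80 and 11.26 on the other 6 arrays, while the mutant channels ran from 10.45 to 11.15. Without these 2 arrays Hoxd4 was still below 0 in every pair but the mean was -0.32 (adjusted p = 0.514).

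Of 34594 probes kept, 6 had a ratio lower by over 1 on each of these 2 arrays than on the dye-swapped array of the same pair. Hox probes made up 3 of the 6: Hoxd4 and both probes of Hoxb8. The others were Prr7, Gprc5b and Cmtm4, so the 6 probes stood for 5 genes. By the same measure 1 probe, of Prmt1, had a ratio higher by over 1 on both. Gprc5b, an orphan receptor gene, was at 9.22 and 10.74 in wild type 1 and higher on the first array of wild type 2 than on its second (7.91), the same order as Hoxb8. The ratios of the 2 arrays of pair 2 correlated at 0.10 across the probes kept, and those of pairs 1, 3 and 4 at 0.45, 0.41 and 0.55. These ratios still hold the dye differences. As deviations from the mean of their dye orientation, over 16013 genes, they correlated at 0.66, 0.63, 0.86 and 0.77 in pairs 1 to 4. Neither probes nor genes are independent replicates. Across probes, wild type 1 correlated at 0.603 with itself on the other array and at 0.576 with the nearest other RNA, and wild type 2 at 0.618 and 0.496. Whether these arrays hold the RNAs their labels give was not tested beyond these correlations.

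**Figure D2:**
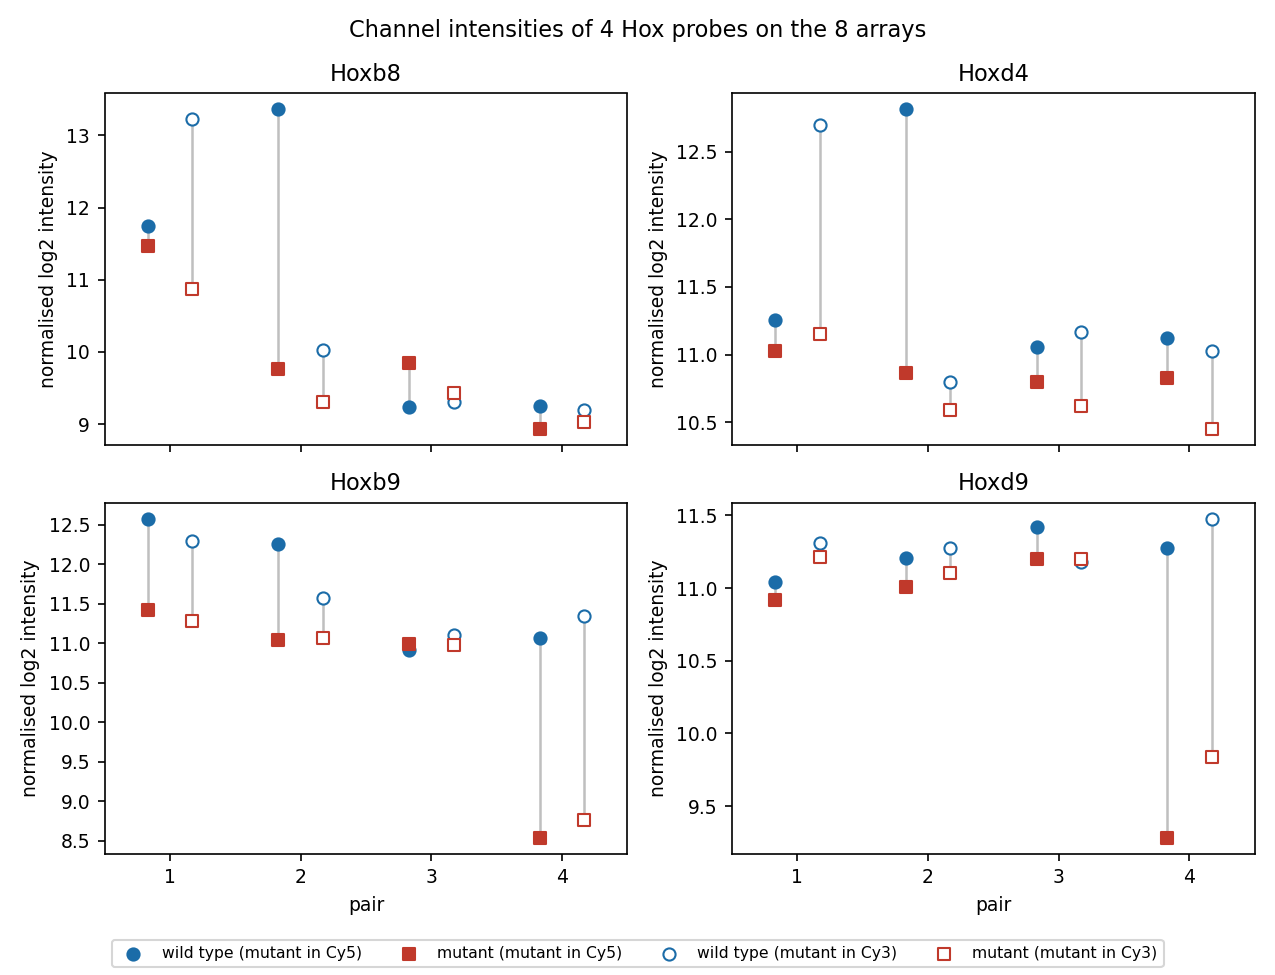
Normalised log2 intensity (vertical axis) of the wild-type and mutant channels of the brightest Hoxb8, Hoxd4, Hoxb9 and Hoxd9 probes by pair (horizontal axis), with grey lines joining the 2 channels of an array; filled symbols are arrays with mutant RNA in Cy5 and open symbols those with mutant RNA in Cy3. For Hoxb8 and Hoxd4 the wild-type channel of 1 array in pair 1 and 1 in pair 2 stands above the rest, and for Hoxb9 and Hoxd9 the mutant channels of pair 4 stand below.

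The promoters of Hoxb8 and Hoxd4 are printed because these genes, on different chromosomes, stood apart on the same 2 arrays, and that of Hoxd9 because its values followed another sample. The stretches are the 250 bases before the annotated start, taken from RefSeq on the GRCm38.p6 build and plus strand: Hoxb8 at chr11:96281655-96281904, Hoxd4 at chr2:74721728-74721977 and Hoxd9 at chr2:74697513-74697762. Capitals mark matches on either strand to TATAAA, the TATA box core, to CCAAT, and to TGATNNAT, a form of the site bound by Pbx with Hox proteins.
Hoxb8: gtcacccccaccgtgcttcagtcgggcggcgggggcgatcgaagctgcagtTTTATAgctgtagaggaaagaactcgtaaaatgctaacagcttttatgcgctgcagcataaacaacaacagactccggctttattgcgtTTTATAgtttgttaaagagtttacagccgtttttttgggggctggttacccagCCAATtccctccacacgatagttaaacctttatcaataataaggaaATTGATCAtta
Hoxd4: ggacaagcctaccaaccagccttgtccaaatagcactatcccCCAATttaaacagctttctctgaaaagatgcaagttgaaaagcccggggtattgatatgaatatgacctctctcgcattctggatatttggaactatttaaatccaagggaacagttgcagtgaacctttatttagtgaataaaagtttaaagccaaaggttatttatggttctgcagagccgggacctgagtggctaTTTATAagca
Hoxd9: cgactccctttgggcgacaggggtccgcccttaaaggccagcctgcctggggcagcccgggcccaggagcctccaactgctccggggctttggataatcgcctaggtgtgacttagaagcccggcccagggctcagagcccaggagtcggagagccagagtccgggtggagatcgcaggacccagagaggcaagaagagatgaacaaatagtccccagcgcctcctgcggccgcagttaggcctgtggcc
The Hoxb8 window held 2 matches to TATAAA, 1 to CCAAT and 1 to TGATNNAT, and that of Hoxd4 held 1 to TATAAA and 1 to CCAAT. None of these letters stood in the Hoxd9 window.

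Promoter windows were found for 22 of the 39 Hox genes, in 24 windows. TATAAA stood in those of 4 genes (Hoxa10, Hoxb8, Hoxd4 and Hoxd13), against 12.4% of all 32851 windows of the table, and CCAAT in those of 14, against 33.9%. TGATNNAT stood in those of 4 (Hoxa2, Hoxb1, Hoxb8 and Hoxd11), against 7.68%. TTTATG, a core of the site of the Cdx factors that act upstream of Hox genes, stood in those of 5 (Hoxa7, Hoxb8, Hoxd3, Hoxd4 and Hoxd11), against 10.8%, and the p53 decamer in those of 3 (Hoxa11, Hoxd4 and Hoxd10), against 7.13%. All motifs were searched on both strands. GC content had a median of 58.6% over the Hox windows, from 40.4% in Hoxd4 to 80% in Hoxa13, and of 52.4% over all windows. A match is a description of the letters, and the windows bear no measured binding here.

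Among paralogs of group 9, Hoxb9 had the lowest mean ratio of the 34 Hox genes, and it rested on 1 probe. That probe was at -1.15, -1.22, 0.08 and -2.53 with mutant RNA in Cy5 and at -1.02, -0.51, -0.13 and -2.58 in Cy3, with the same sign on both arrays in pairs 1, 2 and 4. Pair values of -1.09, -0.87, -0.02 and -2.56 gave a mean of -1.13 ± 0.37 (2.19-fold lower, unadjusted p = 0.021, adjusted p = 0.425). The wild-type channels lay between 10.91 and 12.58, the mutant channels of pairs 1 to 3 between 10.97 and 11.42, and the mutant channels of pair 4 at 8.53 and 8.76. The second Hoxb9 probe was well above background in all channels too and gave -0.11, -0.04, -0.19 and -0.20 (mean -0.14), so that the probes had the same sign but mean ratios far apart. Without pair 4 the mean of the first probe was -0.66, and without pair 3 -1.50; the median of both probes was -0.63.

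Hoxd9, with 1 probe, was low in the mutant sample in which the first Hoxb9 probe was low. Its pair values were -0.11, -0.19, -0.10 and -1.82 (mean -0.55 ± 0.30, 1.47-fold lower, adjusted p = 0.550), and without pair 4 the mean was -0.13. The mutant channels of pair 4 were at 9.28 and 9.84, while those of the other pairs lay between 10.92 and 11.21 and all wild-type channels between 11.04 and 11.48. The 2 arrays of pair 4 agreed in this, unlike those of pairs 1 and 2 for Hoxd4. The second Hoxb9 probe was not low in this sample, at 9.05 and 9.15 against 8.82 to 9.22 in the other mutant channels. Prmt1, named after its values were seen, was low in this sample too, at 12.44 and 12.45 against 15.47 to 15.58 in the other mutant channels.

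The other 2 paralogs of group 9 did not share these values. Hoxc9 was above 0 on all 8 arrays, at 0.02, 0.19, 0.18 and 0.10 with mutant RNA in Cy5 and at 0.17, 0.22, 0.13 and 0.07 in Cy3. Its pair values of 0.09, 0.20, 0.16 and 0.08 gave a mean of 0.13 ± 0.05 (1.1-fold higher, unadjusted p = 0.049, adjusted p = 0.470), a small and even difference. Its wild-type channels ran from 12.81 to 13.09 and its mutant ones from 12.87 to 13.22, so the levels overlapped even though the ratio had 1 sign. For Hoxa9 the 2 probes differed in sign: the brighter was at -0.03, 0.14, -0.12 and 0.18 (mean 0.04 ± 0.07, adjusted p = 0.838) and the second at 0.0035, -0.03, -0.21 and -0.37 (mean -0.15).

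Paralogs of group 10 had means at or above 0. Hoxa10 was at 0.06, 0.18, 0.04 and 0.64 (mean 0.23 ± 0.11, adjusted p = 0.519), and its second probe at 0.26, 0.26, 0.18 and 0.42 (mean 0.28), both above 0 in every pair. Without pair 4 the first probe had a mean of 0.09. Hoxc10 was at 0.27, 0.23, -0.15 and -0.25 (mean 0.03) and Hoxd10 at 0.0010, 0.10, 0.0087 and -0.10 (mean 0.0037), neither with a steady sign.

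The group 11 genes, which act in the mesenchyme that receives the ureteric bud, went different ways. Hoxa11 was at 0.22, -0.19, 0.35 and 0.76 (mean 0.28 ± 0.15, 1.22-fold higher, adjusted p = 0.539), the highest mean of the 34 Hox genes, and 0.12 without pair 4 and 0.44 without pair 2. Hoxc11 was at -0.12, 0.23, -0.47 and -0.26 (mean -0.15 ± 0.11) and Hoxd11 at 0.06, -0.04, -0.12 and -0.22 (mean -0.08 ± 0.07). None of the 3 had the same sign in every pair.

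At the posterior end, Hoxd12 was at -0.15 and Hoxd13, a gene of the limb and the hind urogenital tract, at 0.10, the latter above 0 in all 4 pairs (0.14, 0.07, 0.16 and 0.04, adjusted p = 0.552). The genes that were not tested lie mostly at this end. Hoxb13, Hoxc12 and Hoxc13 were well above background in 0 of 8 wild-type and 0 of 8 mutant channels, and Hoxa13 in 1 and 2. Hoxb1, a hindbrain gene at the other end of its cluster, was well above background in 1 wild-type and 3 mutant channels. For these 5 genes no ratio is given.

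Hoxa2, a gene of the hindbrain and branchial arches, completed the 6 with the smallest p. It was at 0.16, 0.15, -0.21 and 0.14 with mutant RNA in Cy5 and at 0.35, 0.29, 0.16 and 0.21 in Cy3. Its pair values of 0.25, 0.22, -0.03 and 0.18 gave a mean of 0.16 ± 0.07 (1.11-fold higher, unadjusted p = 0.059, adjusted p = 0.485), with pair 3 at about 0 and overlapping levels (8.69 to 9.31 in wild type, 8.91 to 9.44 in mutant). In the same cluster Hoxa3 was at 0.07, Hoxa4 at -0.04, Hoxa5 at 0.10, Hoxa6 at -0.15 and Hoxa7 at -0.02. In the Hoxc cluster Hoxc4 was at 0.09, Hoxc5 at 0.10, Hoxc6 at 0.23 and Hoxc8 at -0.02. In the Hoxd cluster Hoxd1 was at 0.05, Hoxd3 at -0.06 and Hoxd8 at -0.12, the last with both probes at -0.12.

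By paralog number, most groups with 3 or more genes tested held genes on both sides of 0. Group 8 had means below 0 in 3 of 3 genes (median -0.12), but in 1 of 3 with median centring. They were 2 of 3 on the Cy3 arrays alone, without pair 3, and without the 2 arrays on which Hoxb8 and Hoxd4 stood apart. Group 10 had means above 0 in 3 of 3 (median 0.03), but in 1 of 3 without pair 2 or on the Cy5 arrays alone. They were 2 of 3 with Agilent's processed signals, the deposited series table or the Y-linked covariate. The same held without pair 1 and with each pair centred on the genes tested. The widest group was 9, from -1.13 for Hoxb9 to 0.13 for Hoxc9. Groups 1 to 8 had 14 of 22 genes below 0 (median -0.04) and groups 9 to 13 had 5 of 12 (median 0.01). Within groups 1 to 8, 7 of 7 Hoxb genes were below 0, against 3 of 7 in Hoxa, 1 of 4 in Hoxc and 3 of 4 in Hoxd, so that the order by cluster remained within that range of numbers.

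Many Hox ratios differed with the dye orientation, which on the single slide used went with the position of the array, so that dye and position cannot be told apart. In limma's test of the difference between the dye orientations (mutant in Cy5 against mutant in Cy3), 15 of 34 Hox genes were called, where 31.5% of all genes were. Hoxa5 was at 0.50 with mutant RNA in Cy5 and -0.30 in Cy3, and Hoxa9 at -0.34 and 0.43, with opposite signs in the 2 orientations for each gene. Hoxb9, Hoxd9, Hoxd4 and Hoxb8 were not among the 15, and neither were Hoxb6, Hoxc9 and Hoxa2. For Hoxb8 and Hoxd4 this does not show that the orientations agreed. Their arrays differed widely in pairs 1 and 2 and in opposite directions, so the mean differences were -0.12 ± 0.58 and 0.03 ± 0.36. In the Hoxa cluster 7 of 10 genes were called, and the Hoxa median was -0.03 on the Cy5 arrays alone and 0.15 on the Cy3 arrays alone. For Hoxb, 8 of 8 and 7 of 8 genes were below 0 in these orientations.

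**Figure D3:**
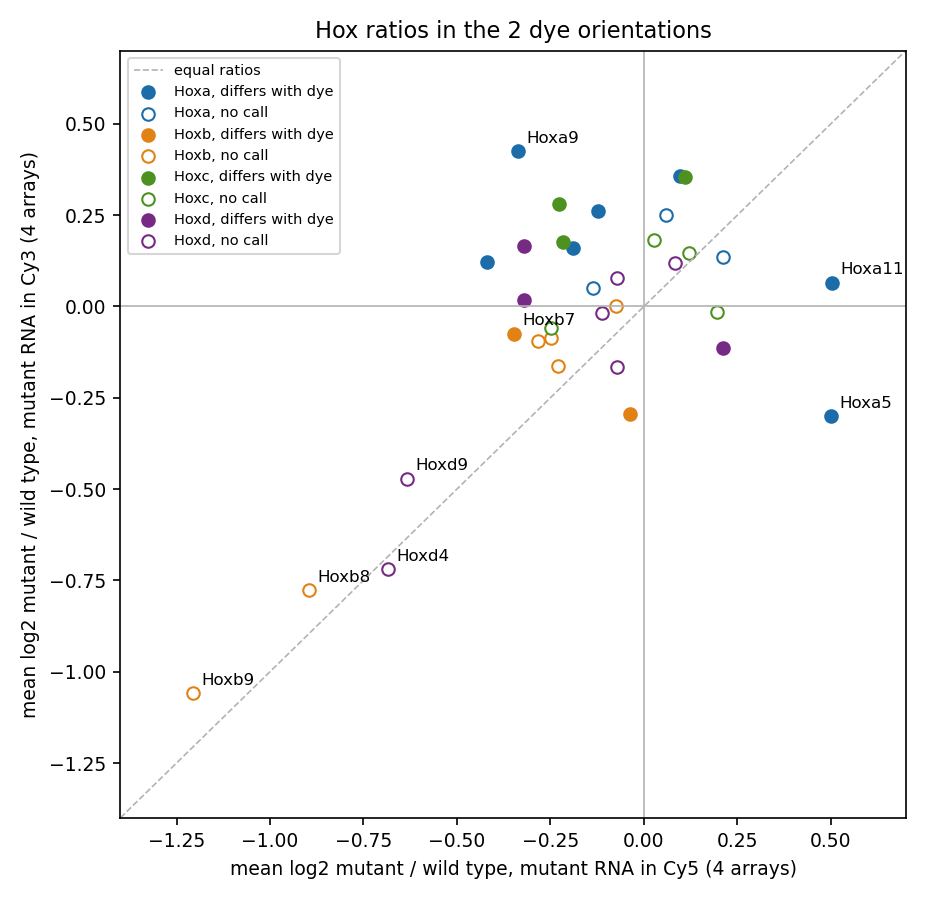
Mean log2 ratio of mutant over wild type of the 34 tested Hox genes with the mutant in Cy3 (vertical axis, 4 arrays) against the mutant in Cy5 (horizontal axis, 4 arrays), coloured by cluster; filled points differed with the dye at an adjusted p under 0.05. Hoxb9, Hoxb8, Hoxd4 and Hoxd9 lie low near the line of equal ratios, and Hoxa5 and Hoxa9 lie far from it on opposite sides. For Hoxb8 and Hoxd4 this place hides large dye differences of opposite direction in pairs 1 and 2.

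The genes that work with the Hox proteins or set their expression gave 0 calls at an adjusted p under 0.05. Of the 9 Pbx, Meis and Pknox cofactor genes, 6 had a mean above 0 (median 0.03), with Meis1 at 0.28 ± 0.13 and Meis2 at 0.16 ± 0.09. Both were highest in pair 4 and below 0 in pair 3. Of 24 regulators measured, which include the Polycomb and Trithorax group proteins that keep clusters silent or active, 15 were above 0 and 9 below (median 0.02). Cbx2, a Polycomb protein, was at -0.24 ± 0.08, Rnf2, the catalytic Polycomb ubiquitin ligase, at 0.16 ± 0.06, and Men1, a partner of the Kmt2a methyltransferase, at -0.25 ± 0.09 (limma adjusted p = 0.429, 0.445 and 0.451).

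Genes and non-coding transcripts beside or within the clusters were described too, 13 in all, of which 8 had a mean above 0 (median 0.05). Skap1, which borders the Hoxb cluster past Hoxb1, was at -0.56, -0.53, 0.10 and -0.62 (mean -0.40 ± 0.13, limma adjusted p = 0.425), and Hoxb5os, a transcript antisense to Hoxb5 and Hoxb6, at -0.46, -0.35, 0.13 and -0.16 (mean -0.21 ± 0.10). Both were above 0 in pair 3 only. Mtx2, beside the Hoxd cluster, was at 0.16 ± 0.06, and Hoxaas3, within Hoxa, at 0.19 ± 0.08.

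Of 12 kidney genes listed as linked to Hox function, 6 were above and 6 below 0 (median 0.03). Foxd1, a stromal progenitor factor, was at 0.26 ± 0.07 and Itga8, the integrin chain of the mesenchyme around the bud, at 0.29 ± 0.09, each above 0 in all 4 pairs (limma adjusted p = 0.398 and 0.424). Six2, the nephron progenitor factor downstream of group 11, was at 0.15, -0.03, -0.37 and -0.22 (mean -0.12 ± 0.09). Gdnf, the ligand that draws out the ureteric bud, was at -0.51, -0.30, -0.05 and -0.12 (mean -0.24 ± 0.09, limma adjusted p = 0.442). Of the 12 genes, 5 were above 0 in all 4 pairs and 1, Gdnf, was below 0 in all 4.

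The remaining marker lists place the Hox values among the other cells of the tissue. Of all 16013 genes tested, 8629 had a mean above 0, which is the background for these and the earlier lists. All lists are given with loess only. Nephron progenitor markers were 7 above and 7 below 0 (median 0.05), and 16 of 19 stromal markers were above 0 (median 0.17, pair medians 0.34, 0.22, 0.05 and 0.21). Means above 0 were found for 8 of 8 macrophage markers (median 0.28), 9 of 13 early nephron and tubule markers (median 0.24), 5 of 8 endothelial (median 0.06), 7 of 8 neuronal and glial (median 0.05) and 4 of 5 muscle and cartilage markers (median 0.29). Adrenal cortex markers were above 0 in 1 of 6 (median -0.06) and gonad markers in 1 of 4 (median -0.01), and 18 of 19 p53 target genes were above 0 (median 0.43). Muscle and cartilage markers, which are not kidney genes, had pair medians of 0.37, -0.11, 0.28 and 0.19. The part of these cells in the Hox values was not tested.

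**Figure D4:**
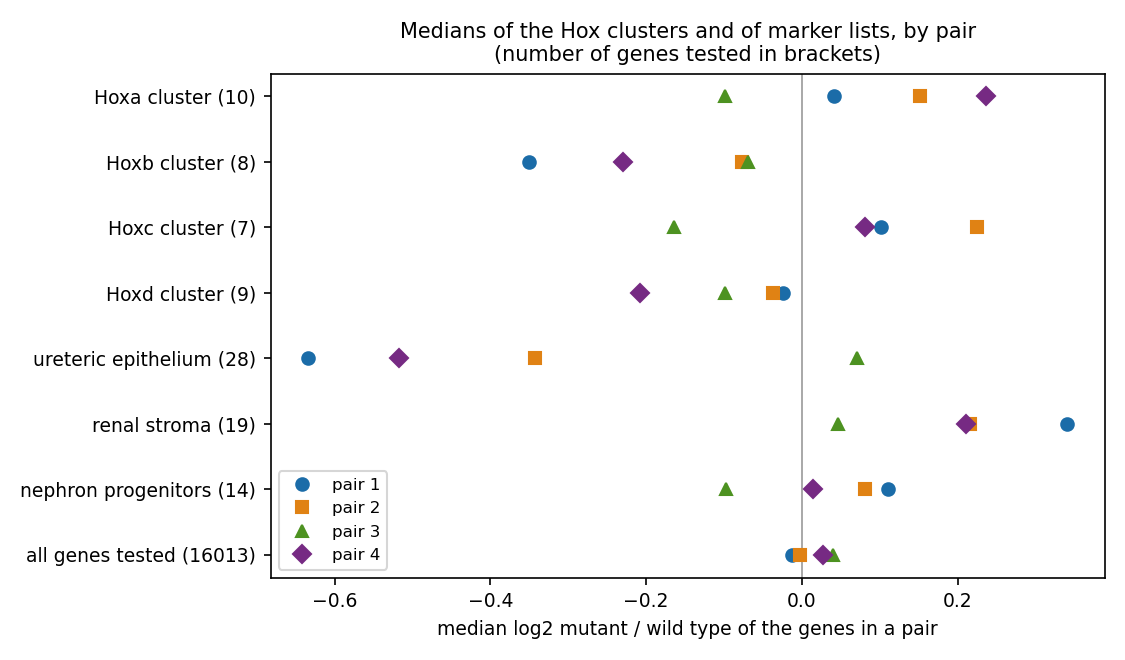
Median log2 ratio of mutant over wild type (horizontal axis) of the genes of each Hox cluster, of 3 marker lists and of all genes tested (vertical axis), with 1 symbol per pair. The Hoxb medians lie between -0.35 and -0.07, while those of the ureteric epithelium reach from -0.63 to 0.07; with median centring in place of loess the Hoxb median is -0.03 and that of all genes 0.14.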

How the data were processed

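Per the file headers, the deposited scanner files give, for both channels, a median intensity per spot and for its surroundings, processed signals, outlier and background flags (the other columns used here), and log10 ratios of Cy5 over Cy3, made with Agilent Feature Extraction 10.7.3.1; the submitters' processing notes name 8.5.1.1. The deposited series table holds the same log10 ratios, which differed from the scanner files by at most 0.005, with column medians of 0.

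Intensities were background-corrected with normexp (offset 50) and normalised by loess in limma 3.58.1 (R 4.3.3), with 3671 control spots per array and outlier spots at weight 0. Ratios were turned to mutant over wild type and the 2 arrays of a pair averaged. A probe was kept (34594 of 56605) if wild type or mutant was well above background in 6 or more of its 8 channels. Through a RefSeq table of GRCm38.p6, 32994 probes (58.3%) were named and 23611 were not; each gene was read from its brightest kept probe. The table gave names, neighbours and promoters only. Ratios were tested against 0 with lmFit and eBayes, two-sided, threshold 0.05; the same was done for the difference between dye orientations. The test was checked on simulated data with independent genes and no shared pair, dye or array effects, so the check does not cover these.

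The pairing comes from the labels, by which the 2 arrays of a pair hold the same RNAs. Across the 16013 genes, deviations of same-numbered arrays correlated at 0.63 to 0.86. The members, lists and tests were chosen with earlier results of these data known. Named in full were Hoxb7 and the 6 Hox genes with the smallest p; other genes of groups 9 to 11 are given by pair, the rest by mean, genes with 2 probes by probe where these differed in sign or by over 0.5, and up to 3 genes of each further list. Hoxb8, the second probe of Hoxa10, Prr7, Gprc5b, Cmtm4, Prmt1, Hoxb5os, Six2 and Gdnf were added after their values were seen. The lists cover Hox cofactors, Hox regulators, cluster neighbours, kidney genes linked to Hox function, p53 targets, sex-linked genes and markers of 10 tissues. Alternatives changed the normalisation, signals, filter, probe, dyes, replicate block, source, covariate and centring, and left out pairs or arrays. Some genes that the rule names are counted but not reported here by name.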

Additional observations from a re-analysis of the deposited data

Results flagged for a closer look

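Of 38 groups of 4 pair values that were examined for 1 value far from the others, 2 had one, at a rate that chance alone gives to about 1 in 20. Hoxd9 was at -1.82 in pair 4, far below the other 3 pairs, on both arrays of that pair. Hoxa7 was at 0.046 in pair 3, apart from 3 other values that lay close together near -0.04, so that a small difference stood out.

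The ratio of 15 Hox genes differed with the dye orientation in limma's test. The difference, mutant in Cy5 minus mutant in Cy3, was above 0 for Hoxa5 (0.80), Hoxa11 (0.44), Hoxd1 (0.33) and Hoxb4 (0.26). It was below 0 for Hoxa9 (-0.76), Hoxa6 (-0.54), Hoxc10 (-0.51), Hoxd11 (-0.49), Hoxc8 (-0.39), Hoxa3 (-0.38), Hoxa7 (-0.35), Hoxd12 (-0.34), Hoxb7 (-0.27), Hoxa10 (-0.26) and Hoxc6 (-0.25). The cause was not tested.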

How the results depend on the processing

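The count of 0 Hox genes past the adjusted threshold was the same in limma under all 16 alternatives, 1 of which, leaving out the 2 arrays on which Hoxb8 and Hoxd4 stood apart, was chosen after seeing the data. Over all genes, median centring in place of loess called 42 genes and the fit of all 8 arrays with a dye coefficient and the pair as replicate block (consensus correlation 0.586) called 39, with 0 Hox genes among either; leaving out 1 pair called 0. With median centring, 5 of 8 Hoxb genes lay below 0 and the medians of Hoxa, Hoxb and Hoxd were 0.23, -0.031 and 0.062, while that of all genes was 0.14. Leaving out 1 pair kept 7 to 8 Hoxb genes below 0. Hoxa9 changed sign with Agilent's processed signals (-0.0013), the median of its probes (-0.054), the Cy5 arrays alone (-0.34) and the Y-linked covariate (-0.016), and ran from -0.0032 to 0.10 with 1 pair left out. The 15 Hox genes called for dye orientation became 8 to 16 with 1 pair left out (8 without pair 3), 22 with median centring and 20 with Agilent's processed signals; the causes were not tested. The other Hox genes named in full kept their sign under every alternative, with adjusted p from 0.104 to 0.923: Hoxd4 ran from -0.80 to -0.32, Hoxb9 from -1.50 to -0.59, Hoxb7 from -0.35 to -0.04 and Hoxb6 from -0.28 to -0.02. With 4 pairs, differences near the median SE of 0.07 could not be resolved. Far larger ones were not called either, such as that of Hoxb9 at -1.13 (limma adjusted p = 0.425). The 5 Hox genes near background allow no statement.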
